A study of Mus musculus with 10 samples.

Results

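Of the 4722 genomic regions where estrogen receptor alpha (ERα) was called in at least 2 of 8 peak lists from mouse hypothalamus, 1514 (32.1%) lay inside introns, in 1200 host genes. A region was made by merging peaks that shared at least 1 bp, and it was placed by its centre in RefSeq transcripts of mm10 (GRCm38). It counted as intronic when the centre was in an intron and not in a promoter (the 1 kb before a transcript start and the 100 bp after it), a termination site (from 100 bp before to 1 kb past a transcript end), an untranslated region or an exon. The intronic sites were selected on the peak calls of these same lists, so how often they were called is described here and not tested. The other regions were 1515 intergenic, 1299 promoter, 346 exon and 48 termination sites.

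The lists come from ChIP-seq, which pulls down a protein with its DNA and sequences that DNA, so that positions rising above the background are called as peaks. Female C57BL/6 mice, ovariectomised and carrying a subcutaneous implant of 17β-estradiol (0.1 mg/mL), were injected with estradiol benzoate (0.05 mg/kg), and tissue was collected 28 h later. There were 4 libraries of the arcuate nucleus and 4 of the AVPV, a periventricular region at the front of the hypothalamus, and all animals of both groups had the same treatment. The chromatin was pooled, and the sources used here leave unsaid whether each library had its own pool, so SDs and p-values measure the spread between libraries, which may be technical. The 2 input samples have no peak list and were not analysed here. Peak lists hold neither read counts nor expression, so the depth behind a value is unknown, a site without a call is not shown to be unbound, and the tissue labels could not be checked against marker genes.

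ERα is a nuclear receptor that, once bound by estradiol, attaches to DNA as a dimer at the estrogen response element, a palindrome of a pair of half-sites. Much of its binding in other tissues lies far from promoters, in introns and between genes, where enhancers are found. An enhancer in an intron can act on its host gene or on another gene, so a host gene is where a site lies and not necessarily what it controls.

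The response element was searched as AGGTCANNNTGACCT, which reads the same on both strands, allowing 2 mismatches among the 12 fixed bases, within 100 bp of the summit of the strongest peak. The matches below are from the RefSeq genome sequence of GRCm38, plus strand, 5′ to 3′, with the 15 bases of the best match in capitals, 7 bases before it and 8 after. The first 4 are from host genes with the most sites and the next 4 from the sites that ranked highest in every list.
Dpp6, chr5:27557156-27557185: ctttcaaAGGTCAGACTGACCTggcttcat
Lsamp, chr16:42134419-42134448: caagtcaAGGTCACTGTGAACTgtgagtat
Prkce, chr17:86264053-86264082: ggcggtcAAGTCACCCTGACCCaggtacct
Tnni3k, chr3:154948976-154949005: tgcacacAGGTCAATTTGACCTaggcaatt
Rbm20, chr19:53852766-53852795: ttcttccATGTCAAGTTGACCTgagcagtc
Greb1, chr12:16760523-16760552: cagttctAGGTCAGGATGACCCagctgcta
Ccdc6, chr10:70159764-70159793: tctgaggAGGTCACCGTGACCTggctccgt
Nrip1, chr16:76321753-76321782: acagggcGGGTTAGAGTGACCTtgagctgc
The next 2 are from sites called in every arcuate list and no AVPV list, and the one after them from a site called in every AVPV list and no arcuate list.
Tcf12, chr9:72008741-72008770: cttagtgAGGTCACAATGACCTctgtgtgt
Dst, chr1:34211210-34211239: aagctccAGATCACTCTGACCCgctccctg
Kifap3, chr1:163833221-163833250: attattcGTGTCAGGATGACCTggagccat
The last 6 are from sites called in all 8 lists whose fold enrichment was higher in the arcuate (the first 3) or in the AVPV (the other 3).
Tmem266, chr9:55361026-55361055: tctaggaGGGTCACACTGACCCacagagcc
Greb1, chr12:16764899-16764928: gacttggAGGTCGCGCTGACCCttctggaa
Fbxo31, chr8:121573132-121573161: cacgcacAGGTCAACATGACCTctcaagca
Poc1b, chr10:99159182-99159211: tgtggttCGGTCAGGCTGACCCaggctgcg
Dgkb, chr12:37909675-37909704: ggaagtgAGGTCAATGTGACATggcgtcct
Mylk4, chr13:32765645-32765674: gtgtgtcAGACCACCCTGACCTtgcaaaac
The matches in Dpp6, Tnni3k, Ccdc6, Tcf12 and Fbxo31 have no mismatch, and those in Lsamp, Rbm20, Dgkb and the first Greb1 site have 1.

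Of the 1514 intronic sites, 742 (49.0%) held such a match and 65 a perfect one. In windows of the same length moved by 5 kb the share was 1.12%. Matches were about as frequent in intergenic sites (52.4%) and rare in promoter sites (3.54%), while over all 4722 regions the share was 35.0%. The share went from 41.9% of the 401 intronic sites found in exactly 2 lists to 61.9% of the 278 found in all 8. Just outside the rule, the 1146 intronic regions found in a single list held a match in 25.8%. Their median percentile of fold enrichment within its list was 21.7, against 32.8 for sites in exactly 2 lists, so the regions on either side of the limit were both among the weaker peaks.

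Libraries were compared over all intronic peaks of each list, whether or not another list shared them. Arcuate libraries 1 to 4 had 1408, 1268, 1022 and 911 intronic peaks, and AVPV libraries 1 to 4 had 651, 733, 865 and 951. The groups overlapped only in arcuate library 4, the lowest of its group, and AVPV library 4, the highest of its group. An arcuate library had 1152 ± 226 on average (SD, n = 4), against 800.0 ± 134 for an AVPV library (SD, n = 4), and the difference of 352 did not pass the threshold (two-sided exact permutation, p = 0.0571, Benjamini-Hochberg adjusted over 8 tests p = 0.114). Without arcuate library 4 it was 433 peaks (two-sided exact permutation, unadjusted p = 0.0286, the smallest that this design allows), and with every list cut to the length of the shortest it was 62 peaks (exact permutation, p = 0.286). As a share of the list, intronic peaks made up 31.2% ± 3.55 of an arcuate list (SD, n = 4) and 28.3% ± 2.22 of an AVPV list (SD, n = 4), a difference of 2.93 points within the spread (two-sided exact permutation, p = 0.2, adjusted p = 0.267). Without arcuate library 4 it was 4.59 points (exact permutation, unadjusted p = 0.0571).

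**Figure D1:**
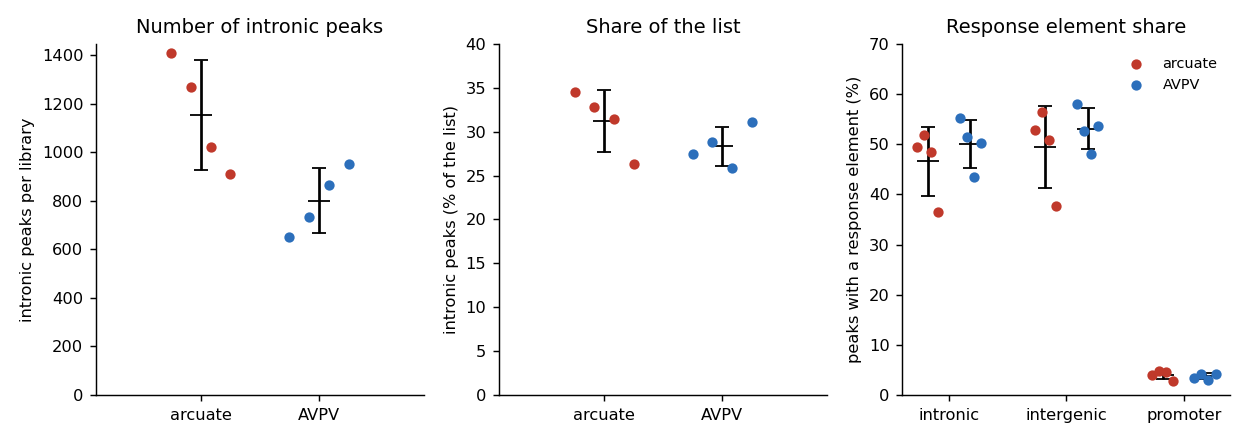
Intronic peaks per library as a number (left) and as a percentage of the list (middle), and the percentage of intronic, intergenic and promoter peaks with a response element (right), for 4 arcuate and 4 AVPV libraries. Points are libraries and black bars the mean ± SD; the response element share lies between 36.6% (arcuate library 4) and 55.1% in introns and under 5% in promoters in all 8 libraries.

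The response element share of intronic peaks was 46.6% ± 6.82 for arcuate libraries (SD, n = 4) and 50.1% ± 4.87 for AVPV libraries (SD, n = 4), a difference of -3.49 points that did not pass the threshold (two-sided exact permutation, p = 0.457, adjusted p = 0.522). It was -0.15 points without arcuate library 4 (exact permutation, p = 0.943) and -0.38 points with lists of equal length (exact permutation, p = 0.886). Within each library, intronic peaks held a match less often than intergenic peaks, by 2.99 points on average and from 1.06 to 4.62 points, in 8 of 8 libraries (exact two-sided sign-flip permutation test, p = 0.00781, adjusted p = 0.0208). They held one more often than promoter peaks by 44.4 points, also in 8 of 8 libraries, with the same p-values. In fold enrichment, the median intronic peak ranked 6.0 percentile points below the median promoter peak (8 of 8 libraries, exact two-sided sign-flip permutation test, p = 0.00781, adjusted p = 0.0208). Against intergenic peaks it ranked 3.18 points higher on average, which did not pass (p = 0.0938 in the exact two-sided sign-flip permutation test, adjusted p = 0.15). In every library most intronic peaks lay at sites that another list also held, so these differences are not independent draws. The smallest p that 8 libraries allow is 0.00781. Counted by site, the order of fold enrichment against promoters was the other way. A site's median percentile over its lists had a median of 47.4 in intronic and 44.0 in promoter sites, which was not tested.

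Arcuate library 4 stood apart from the other arcuate libraries. Its intronic peaks had a match in 36.6% against 48.5% to 51.8% in arcuate libraries 1 to 3, lay in first introns in 45.0% against 28.6% to 33.4%, and had a mean GC content of 54.8% against 49.1% to 50.7%. Differences between nuclei are therefore also given without it where it moved them by over 1.5 times.

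A site counted as called in a nucleus with peaks in 2 or more of that nucleus's 4 lists. Of the intronic sites, 597 (39.4%) were called in the arcuate only, 253 (16.7%) in the AVPV only, 584 (38.6%) in both, and 80 had a peak in a single library of each. Over all 4722 regions, 32.2% were arcuate only and 15.4% AVPV only. The intronic shares resembled those of the intergenic sites (39.1% and 19.1%), whereas 62.1% of promoter sites were called in both nuclei. A stricter description asks for a peak in all 4 lists of a nucleus and for no peak in the opposite 4. It held for 71 intronic sites (4.69%) in the arcuate, where all regions gave 3.64%, and for 27 (1.78%) in the AVPV, where all regions gave 1.4%. The numbers depended on the lists. With every list cut to its 2367 strongest peaks, the length of the shortest, they were 43 in the arcuate and 39 in the AVPV, and the shares of sites called in a single nucleus were 29.8% and 24.9%. Without arcuate library 4, 188 sites had peaks in the other 3 arcuate lists and no AVPV list, and 28 had peaks in the AVPV lists alone. Without arcuate library 1, the sites of all AVPV lists and no arcuate list were 49, and the shares called in a single nucleus were 29.3% in the arcuate and 25.1% in the AVPV. These recomputed numbers cover intronic sites only, and whether all regions shift in the same way was not tested.

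**Figure D2:**
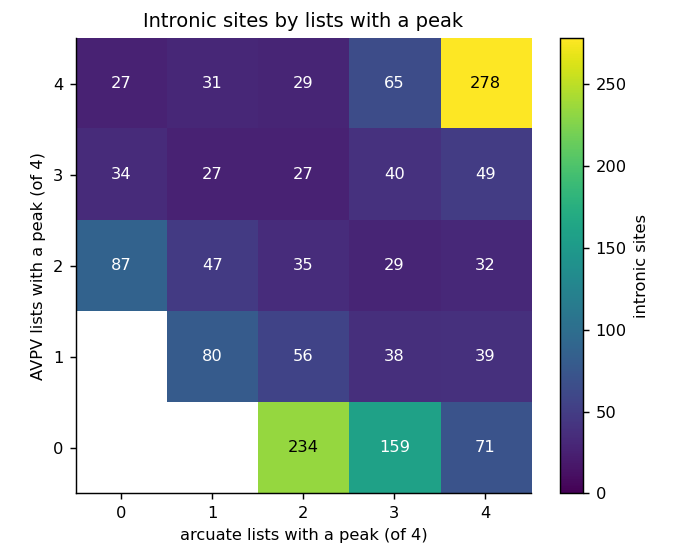
The 1514 intronic sites by the number of arcuate lists (horizontal axis) and AVPV lists (vertical axis) with a peak; colour and figure give the number of sites, and cells with fewer than 2 lists are empty by the rule. The corner of all 8 lists holds 278 sites, and along the bottom 234, 159 and 71 sites had peaks in 2, 3 and 4 arcuate lists and none of the AVPV.

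Ranked by the lowest percentile of fold enrichment over their 4 lists, the first 6 arcuate sites lay in Tcf12, Grk3, Tns1, Asic2, Tshz2 and Dst. The site in intron 3 of Tcf12, a helix-loop-helix transcription factor, had fold enrichments of 10.01, 8.07, 9.77 and 7.21 in arcuate libraries 1 to 4. In Grk3, a kinase that desensitises G-protein-coupled receptors, they were 8.98, 9.95, 13.3 and 7.21, in intron 6. The site in intron 1 of Asic2, a proton-gated cation channel of neurons, had 12.6, 7.53, 7.49 and 9.02. None of these had a call in any AVPV list. The other 3, in the cytoskeletal linkers Tns1 and Dst and the zinc-finger homeobox gene Tshz2, ranged from 6.93 to 11.03.

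Of the corresponding 6 AVPV sites, those described here lay in Tmcc3, Gm11351, Ttr, Kifap3 and Mrtfa. In intron 1 of Ttr, the thyroid hormone carrier transthyretin, AVPV libraries 1 to 4 had fold enrichments of 7.84, 6.94, 7.2 and 10.2, with the site 1.06 kb from the start. The site in Kifap3, an adaptor of the kinesin-2 motor, had 7.84, 6.94, 7.2 and 9.08. No arcuate list had a call at any of the 6. In the remaining 3 sites the values ranged from 6.58 to 18.4, the highest being AVPV library 4 at Gm11351.

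Where ERα was called in all 8 lists, its fold enrichment could be compared between nuclei without missing values. Each of the 1089 such regions, intronic or not, was fitted with limma on the log2 scale after centring each list on its median, and a region was called at an adjusted p under 0.05. Of the 278 intronic sites, 38 (13.7%) were higher in the arcuate and 25 (8.99%) higher in the AVPV, where all regions gave 10.2% and 9.18%. The median log2 difference, arcuate minus AVPV, was 0.04 over the intronic sites and 0.02 over all regions. Promoters gave 27 higher in the arcuate and 53 in the AVPV of 469, and intergenic sites 38 and 15 of 231. These counts are set side by side and were not tested against each other. On the percentile of fold enrichment within the list the intronic count was 18 in place of 63, and with an exact permutation test per region, which at 4 libraries against 4 cannot go below 0.0286 before adjustment, it was 0, with 67 at an unadjusted p under 0.05.

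The largest difference was at a site in intron 1 of Tmem266, a voltage-sensing membrane protein, on chromosome 9 from 55360818 to 55361694. Arcuate libraries 1 to 4 had fold enrichments of 29.2, 35.0, 29.6 and 27.4, and AVPV libraries 1 to 4 had 6.36, 9.11, 6.62 and 12.3. Every arcuate library was above every AVPV library, and the log2 difference was 1.86 ± 0.21 (SE, limma adjusted p = 4.23e-06). The second intronic site of Greb1, a classic estrogen-induced gene, had 15.7, 17.0, 19.3 and 13.2 in the arcuate and 6.27, 6.12, 6.15 and 5.12 in the AVPV (log2 difference 1.44 ± 0.19 SE, limma adjusted p = 2.8e-05). Intronic sites in Il1rap, an interleukin-1 receptor accessory protein, Fbxo31, a ubiquitin ligase subunit, and Lrp1b, a receptor of the LDL receptor family, were higher in the arcuate by 1.32 to 1.36 log2 units. At Lrp1b the arcuate libraries had 27.7, 19.1, 23.8 and 16.2 and the AVPV libraries 10.5, 5.97, 9.44 and 7.91, with no overlap.

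In the other direction, a site in intron 9 of Poc1b, a centriole protein, had fold enrichments of 6.18, 6.96, 5.85 and 4.8 in arcuate libraries 1 to 4 and 17.0, 16.3, 13.1 and 17.6 in AVPV libraries 1 to 4. The groups did not overlap, and the log2 difference was -1.44 ± 0.19 (SE, limma adjusted p = 2.89e-05). Slc29a2, which encodes a nucleoside transporter, had 6.63, 4.84, 4.65 and 5.5 against 14.1, 12.8, 14.5 and 12.8 in intron 1, with the site 0.348 kb from the start. Dgkb, a diacylglycerol kinase, Mylk4, of the myosin light chain kinase family, and Lrrc3b, a leucine-rich repeat protein, differed by -0.95, -0.87 and -0.77 log2 units. These 10 sites were picked for the smallest p in each direction. That none overlapped between the nuclei in fold enrichment follows largely from that choice and is no separate evidence.

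**Figure D3:**
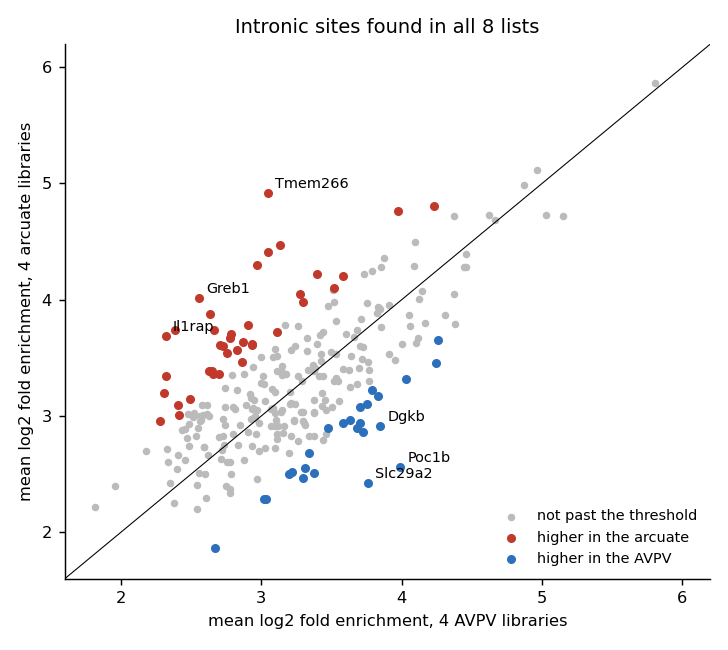
Mean log2 fold enrichment of the 278 intronic sites found in all 8 lists, in the 4 AVPV libraries (horizontal axis) and the 4 arcuate libraries (vertical axis), with the line of equal values; red points (38) are higher in the arcuate and blue points (25) higher in the AVPV by limma at an adjusted p under 0.05. Tmem266 lies farthest above the line and Poc1b farthest below.

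Among the 278 intronic sites with a peak in all 8 lists, ranked by their lowest percentile of fold enrichment over the lists, the first 8 lay in Slc39a10, Rbm20, Actl6a, Greb1, Epc2, Prkce, Ccdc6 and Nrip1. In Slc39a10, a zinc transporter, fold enrichment was 57.7, 57.3, 55.7 and 63.1 in the arcuate and 49.2, 54.3, 69.5 and 52.8 in the AVPV, with overlapping groups. The first Greb1 site had 31.3, 27.8, 25.3 and 22.2 against 35.0, 26.6, 31.6 and 38.6, and in Nrip1, the receptor corepressor RIP140, the values were 26.9, 18.02, 20.8 and 19.1 against 18.8, 24.3, 20.3 and 25.0. None of these 3 was called different by limma (adjusted p from 0.246 to 0.863). The sites in Slc39a10, in Actl6a, a chromatin remodelling subunit, and in Epc2, an enhancer of polycomb homolog, held no response element and had 23 to 31 CpG dinucleotides in the 201 bp around the summit, where the median intronic site had 2. The Actl6a and Epc2 sites lay 0.613 and 0.903 kb from the start of the longest transcript, and the Actl6a site lay in a promoter of the GENCODE M21 annotation.

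That annotation, an alternative chosen after the data had been seen, puts 132 of the intronic sites (8.72%) in a promoter of the same extent. These held a response element in 27.3%, against 51.1% of the other 1382, and had a median of 8 CpG dinucleotides against 2. Without them, 1382 sites and 60 sites different by limma remain.

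Introns cover 36.1% of the sequenced genome, and the intronic sites came to 1.58 per Mb of intron, between the 0.966 per Mb of intergenic sequence and the 41.4 per Mb of promoter. The median site lay 53.5 kb from the start of the longest transcript of its host, and 20.3% lay within 10 kb, a stretch that holds 16.5% of intron bases. In first introns lay 32.6% of the sites and 27.1% of intron bases. Of the 1200 host genes, 60 (5.0%) also had a promoter site, as did 1532 of all 26180 genes (5.85%). Among genes with an intron, 1461 (6.645%) had one. On chromosome X lay 16 sites, and 21 sites had several hosts because their genes overlap.

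Most host genes, 967, had a single intronic site, while 171 had 2, 37 had 3, 16 had 4, 5 had 5 and 4 had more. The 233 genes with several sites held 569 sites (37.6%). They had long introns, with a median summed intron length of 249 kb against 76.0 kb in single-site hosts and 15.1 kb in all genes with an intron. Of the 206 genes with over 500 kb of intron, 103 hosted a site and 54 of these several, and of the 8712 genes with up to 10 kb, 98 (1.12%) hosted one. Per Mb of intron the order was another, with 2.68 sites in genes of up to 10 kb and 1.2 in those over 500 kb. Genes of 10 to 50, 50 to 200 and 200 to 500 kb had 1.476, 1.645 and 1.654, so the fall was not steady. Sites of the same gene had different calls in 325 of 507 pairs (64.1%), close to the 66.5% over all pairs of intronic sites. Among the 233 genes, 39 had both an arcuate-only and an AVPV-only site, whereas 33 had arcuate-only sites alone, 6 AVPV-only sites alone and 22 shared sites alone.

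**Figure D4:**
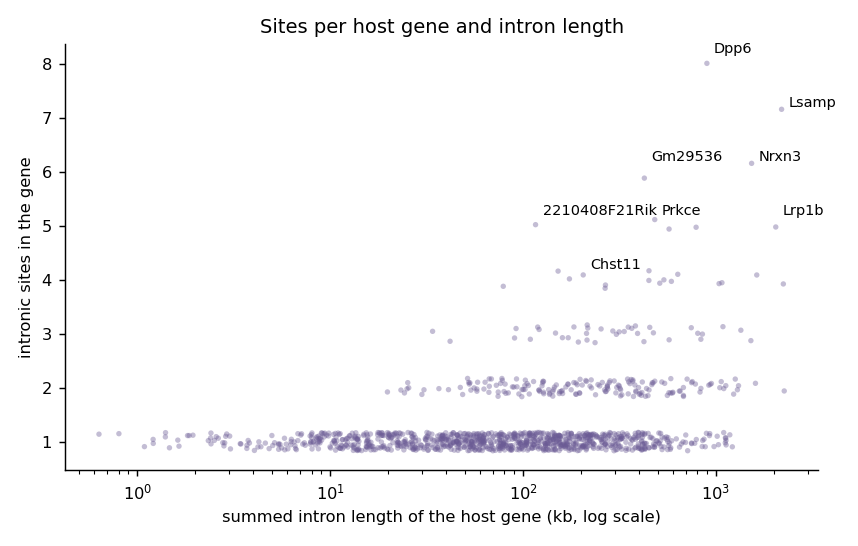
Number of intronic sites (vertical axis, points spread slightly for visibility) against the summed intron length in kb (horizontal log axis) for the 1200 host genes. Genes with more sites lie further to the right, and Dpp6 has the most with 8.

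Dpp6, an auxiliary subunit of Kv4 potassium channels, had 8 sites in 897 kb of intron on chromosome 5. Of these, 6 were called in both nuclei, 2 in the arcuate only, and 4 had a peak in every list. The strongest, in intron 7, had fold enrichments of 17.4, 16.3, 11.9 and 10.5 in the arcuate and 15.4, 15.9, 17.2 and 18.4 in the AVPV. The site in intron 6, which holds the perfect element printed above, had 10.5, 13.7, 11.1 and 7.94 against 10.7, 13.6, 10.01 and 14.2. At neither did the nuclei separate. The site in intron 11, by contrast, had 4.25, 7.29, 4.9 and 3.7 against 5.49, 8.96, 10.01 and 9.08, with a log2 difference of -0.76 ± 0.22 (SE, limma adjusted p = 0.0179), although the groups overlap. It begins at 27652537, close to the intron 10 site, which ends at 27652460. Dpp6 had 7 sites with peaks cut to 200 bp before merging. Placed by the summit of the strongest peak it also had 7, as did Lsamp.

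Lsamp, an adhesion protein of limbic neurons, had 7 sites spread over 1942 kb, 4 shared and 3 arcuate only. Nrxn3, a presynaptic adhesion protein, had 6, of which 2 were shared, 3 AVPV only and 1 with a single library of each nucleus. Its site in intron 9 had peaks in every AVPV list, with fold enrichments of 5.49, 4.34, 5.63 and 7.38, and no call in the arcuate. The non-coding gene Gm29536 also had 6 sites. Lpp, a focal adhesion protein, Lrp1b, Prkce, which encodes protein kinase C epsilon, Camta1, a calmodulin-binding transcription factor, and the non-coding gene 2210408F21Rik had 5 each. In Prkce a shared site in intron 1 had 27.5, 31.8, 28.9 and 19.5 in the arcuate and 25.6, 27.2, 22.2 and 24.0 in the AVPV, and both of its single-nucleus sites were arcuate only. In Lrp1b both were AVPV only, beside the shared site in intron 20 that was higher in the arcuate. In Camta1, 2 sites were arcuate only and 2 AVPV only. Tnni3k, a cardiac kinase, Chst11, a chondroitin sulfotransferase, and Csrnp3, a transcription factor, had 4 each and were taken from 16 genes with 4 sites as those with the most peaks over the 8 lists. At Chst11 a shared site in intron 2 had 17.7, 13.1, 14.2 and 9.59 in the arcuate and 5.25, 3.87, 5.06 and 7.28 in the AVPV, again without overlap (log2 difference 1.34 ± 0.21 SE, limma adjusted p = 0.000108).

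**Figure D5:**
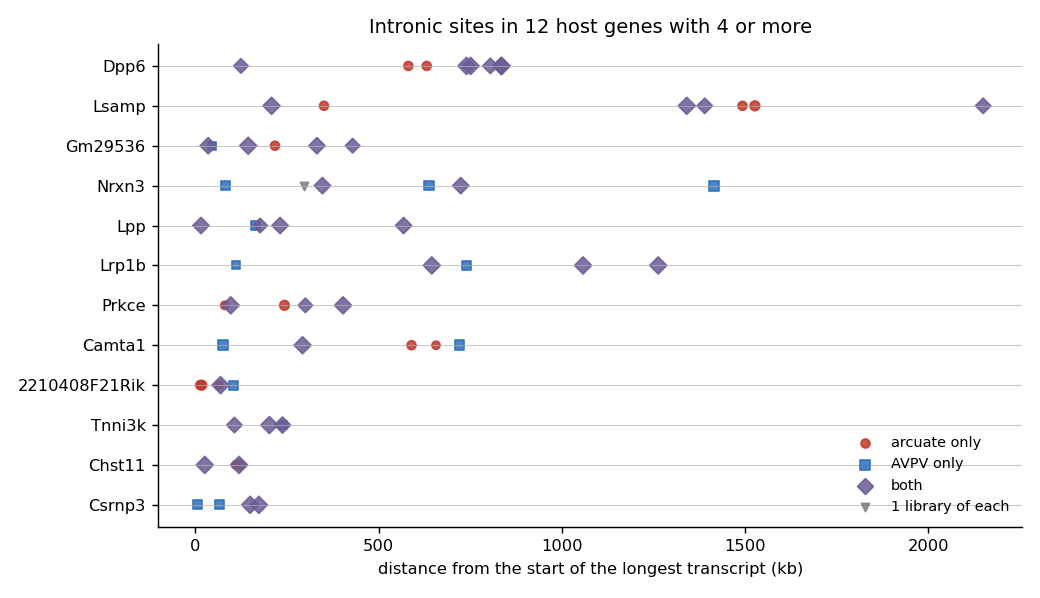
Distance in kb from the start of the longest transcript (horizontal axis) of each intronic site in 12 host genes (rows), the 9 with 5 or more sites and 3 of the 16 with 4, with shape and colour for the call by nucleus and larger symbols for more lists. Sites called in the arcuate only, the AVPV only and both lie among each other, for example in Camta1, and Lsamp sites reach 2150 kb.

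Host genes were also read by 13 lists of gene groups, chosen with earlier results of these data known. Over all genes, 4.58% hosted an intronic site (5.46% of the genes with an intron), and sites came to 1.55 per Mb of intron. Of all intronic sites, 39.4% were arcuate only and 16.7% AVPV only. Most lists hold genes with long introns, so sites are also given per Mb of intron. Estrogen-responsive genes had the highest density, 6.49 per Mb, with 11 sites in 7 of 39 genes. Of these sites, 9 held a response element (81.8%), against 49.0% of all intronic sites. Besides the 3 sites in Greb1 and 2 in Nrip1, there were 2 in Rara, a retinoic acid receptor, and 1 each in Rerg, a small GTPase, Sgk1, a hormone-induced kinase, Esr1, which encodes ERα itself, and Pgr, the progesterone receptor. The Esr1 and Pgr sites had a peak in a single library of each nucleus. The third Greb1 site was called in all arcuate lists, with 9.24, 12.6, 4.76 and 6.85, and in no AVPV list. The shared Rerg site had 10.8, 11.03, 8.79 and 5.77 against 11.5, 8.67, 12.5 and 11.6, with overlapping groups.

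Among ion channel genes, the list of calcium, sodium, HCN and TRP channels, which also holds Itpr and Ryr genes, had 31 sites in 17 of 80 genes (2.92 per Mb). Of these sites, 12 were arcuate only (38.7%) and 7 AVPV only (22.6%), near the shares of all intronic sites. Cacna1c, the L-type calcium channel Cav1.2, had 4 sites, 3 of them arcuate only, and the one in all arcuate and no AVPV lists had fold enrichments of 4.62, 5.92, 6.51 and 5.41. Cacna2d3, an auxiliary calcium channel subunit, had a shared site with 13.3, 12.4, 14.4 and 11.1 in the arcuate and 6.28, 5.2, 8.52 and 7.95 in the AVPV, without overlap (log2 difference 0.88 ± 0.19 SE, limma adjusted p = 0.00217). Potassium channels had 22 sites in 16 of 88 genes (2.25 per Mb), 10 arcuate only (45.5%) and 4 AVPV only (18.2%), again near those shares. They included 3 in Kcnd3, a Kv4 channel, and 2 in Kcnip1, a Kv4-interacting protein whose shared site was higher in the arcuate (log2 difference 0.68 ± 0.20 SE, limma adjusted p = 0.0166), although AVPV library 4, at 7.49, lay above arcuate library 4, at 7.19.

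Glutamate receptors had 10 sites in 7 of 28 genes and GABA receptors 4 in 4 of 20, at 1.09 and 1.41 per Mb. In Grin2b, an NMDA receptor subunit, a shared site had 8.02, 8.86, 6.84 and 7.19 in the arcuate and 10.7, 13.5, 14.2 and 14.1 in the AVPV, without overlap (log2 difference -0.77 ± 0.18 SE, limma adjusted p = 0.00492). A response element was in all 4 sites of GABA receptor genes, in 3 of the 10 of glutamate receptor genes and in 49.0% of all intronic sites. Synaptic adhesion genes had the most sites, 62 in 30 of 165 genes, at 1.31 per Mb. Among them Cntnap2, a neurexin-family protein, had 3 AVPV-only sites and a shared one, and Csmd1, a complement-regulating membrane protein, 3 arcuate-only sites and a shared one.

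Signalling genes of cAMP and calcium had 34 sites in 20 of 128 genes (2.0 per Mb), 15 arcuate only (44.1%) and 6 AVPV only (17.6%), where all intronic sites gave 39.4% and 16.7%. At Camk2b, a calcium/calmodulin-dependent kinase, a shared site had 15.8, 18.7, 16.6 and 15.5 in the arcuate and 10.2, 8.67, 7.51 and 13.3 in the AVPV, without overlap (log2 difference 0.76 ± 0.20 SE, limma adjusted p = 0.00955). Axon guidance genes had 15 sites in 12 of 74 genes (1.23 per Mb, below the 1.55 of all genes). Nuclear receptors had 12 sites in 10 of 47 genes (2.32 per Mb). None of these sites was in all 8 lists, against 18.4% of all intronic sites. Receptor coregulators had 4 sites in 3 of 44 genes (1.025 per Mb), all with a response element, which 49.0% of all intronic sites held. The patterning and neuronal identity factors had 16 sites in 10 of 56 genes (1.18 per Mb, below the 1.55 of all genes). Of the 16 sites 8 were shared, where 38.6% of all intronic sites were. Arcuate only were 8 (50%) and AVPV only 0 (0%), against 39.4% and 16.7% of all intronic sites. Hypothalamic peptides and their receptors had 5 sites in 3 of 72 genes (2.0 per Mb), 1 arcuate only (20%) and 3 AVPV only (60%). The AVPV-only sites lay in Igf1r, the IGF-1 receptor, Oprm1, the µ-opioid receptor, and Ddc, an enzyme of dopamine and serotonin synthesis. They had peaks in 2 AVPV lists at Igf1r, in 2 at Oprm1, and in 3 at Ddc beside 1 arcuate list. The arcuate-only site also lay in Oprm1, and the shared site in Igf1r. The patterning and the peptide gene lists hold few sites, and their shares were not tested against those of all intronic sites.

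Other motifs were searched on both strands in the same 201 bp. The exact half-site AGGTCA, which is part of the full element and so overlaps it, was in 50.7% of intronic and 53.3% of intergenic sites. It was in 8.93% of promoter sites, 37.8% of all regions and 12.4% of moved windows. The AP-1 motif TGANTCA was in 7.79% of intronic sites, 9.37% of intergenic sites and 7.0% of moved windows. The glucocorticoid and androgen response element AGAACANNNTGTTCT, with at most 2 mismatches, was in 4.23%, 5.15% and 1.25%. The NFI motif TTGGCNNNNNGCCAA, with at most 1, was in 0.462%, 0.99% and 0.793%.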

How the data were processed

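ERα ChIP-seq peak lists of 4 arcuate and 4 AVPV libraries were analysed. The submitters' processing notes name Bowtie2 2.5.0, MACS2 2.2.7.1, deepTools 3.5 and mm10. The authors called peaks per library at a false discovery rate of 5%, and the lists hold 2367 to 4079 peaks. The deposited files give each peak a score, which was not used, a fold enrichment (the ratio to a local background), and significance as −log10 p-values and q-values. No read counts or coverage were used, so depth and its precision are unknown. No 2 lists shared more than 1 identical peak.

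Peaks were merged and annotated at region centres with 45756 curated RefSeq transcripts of GRCm38. Per-library values were compared by exact two-sided permutation over 70 assignments, or by sign flips within libraries, with Benjamini-Hochberg adjustment over 8 tests. Regions of all 8 lists were fitted with limma 3.58.1 (R 4.3.3), the log2 of the authors' fold enrichment centred per list. The scripts were tested on simulated data. Python 3.11.15, numpy 2.4.6, scipy 1.17.1 and pysam 0.24.0 were used.

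The members and gene lists were chosen with earlier results of these data known. Named were the 12 host genes with most sites (ties by the number of peaks), the 8 strongest sites of all lists, the 6 strongest in each direction called in a single nucleus, the 5 with the smallest p in each direction by limma, the 4 genes with most sites per list (given in part) and all sites of estrogen-responsive genes. Some of these genes and sites, and a gene list, are not reported here. Alternatives changed the merging, thresholds, annotation, motif limits, list lengths, normalization, pairing and libraries.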

Additional observations from a re-analysis of the deposited data

Results flagged for a closer look

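In 36 groups of 4 libraries, 2 values lay far from the other 3 by Dixon's test, which flags about 5% of groups by chance. The median intronic peak of arcuate library 4 ranked 8.45 percentile points of fold enrichment above the median intergenic peak, while arcuate libraries 1 to 3 had 0, 0 and -1.35. At the second intronic site of Greb1, AVPV library 4 had a fold enrichment of 5.12, while the other AVPV libraries had 6.12 to 6.27, and all were below the arcuate libraries.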

How the results depend on the processing

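Of 180 recomputed values for the main results, 173 kept their direction and their side of the threshold, or stayed within 1.5 times for counts. A tested difference that did not pass counted as kept when it again did not pass in the same direction, however much its size changed. Host genes with several intronic sites numbered 233, but 140 when a site needed at least 3 lists and 148 with lists of equal length, both of which leave fewer sites by construction. Leaving out single libraries gave 183 to 224. Sites with peaks in all libraries of 1 nucleus and none of the other numbered 98, and 112 to 216 without single libraries, the highest without arcuate replicate 4, where 3 lists suffice. The intronic sites called by limma were 63, but 18 on percentiles (17 of them among the 63), 0 by the exact permutation test per region, and 47 to 69 without single libraries. No call of the 63 changed direction under any of these settings. The difference in intronic peaks, 352, was 62 with lists of equal length and ranged from 267 to 433 without single libraries, and the first intron share, 1.92 points higher in the arcuate, from -1.39 (reversed, without arcuate replicate 4) to 4.09.

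The replicate block changed no call among the library tests (number of intronic peaks, difference 352, exact permutation p = 0.25, where 0.125 is the smallest possible) and gave 66 limma calls, with all 63 among them. Libraries of the same number did not deviate together (correlations 0.10, -0.01, 0.05 and -0.31), so the numbers were not taken to pair them. Leaving out arcuate library 4 and AVPV library 3 together, chosen after seeing the data, gave 59 calls. Depth is unknown, and an absent call is not absent binding.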

Other observations

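The half-site of the estrogen response element was more frequent in arcuate-only than in AVPV-only intronic sites, a pattern chosen after its values were seen and on sites selected by these calls, so it is described only. The exact half-site was in 57.6% of the 597 arcuate-only sites and 38.3% of the 253 AVPV-only sites, and in 51 of 71 sites of all arcuate and no AVPV lists (71.8%) against 7 of 27 in the other direction (25.9%). Among sites without the full element the shares were 39.8% and 15.97%. Full elements were in 46.1% and 43.1%, and in 35 of the 71 (49.3%) and 9 of the 27 sites (33.3%) of the stricter sets. The base composition moved with it, at a median GC content of 50.2% in arcuate-only and 44.3% in AVPV-only sites, and its part in the difference was not tested.

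Over all intronic peaks without the full element, whatever the other lists held, the half-site share was 34.9%, 30.4%, 31.4% and 18.3% in arcuate libraries 1 to 4 and 18.8%, 18.5%, 16.6% and 20.3% in AVPV libraries 1 to 4. Arcuate libraries 1 to 3 were above every AVPV library and arcuate library 4 among them. The difference of 10.2 points did not pass the threshold (two-sided exact permutation, p = 0.114, Benjamini-Hochberg adjusted over 4 such measures p = 0.19), and without arcuate library 4 it was 13.7 points (exact two-sided permutation test, unadjusted p = 0.0286, the smallest possible). Mean GC content was 51.3% ± 2.44 for arcuate libraries (SD, n = 4) and 48.7% ± 1.52 for AVPV libraries (SD, n = 4), a difference of 2.55 points (exact two-sided permutation test, p = 0.143, adjusted p = 0.19), and 1.38 points without arcuate library 4 (exact permutation, unadjusted p = 0.229).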
